A study of Mus musculus with 3 samples.

Results

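The genes described here are 10 inflammatory chemokine and colony-stimulating factor genes of the mouse: Cxcl1, Cxcl2, Cxcl5, Cxcl16, Ccl2, Ccl7, Ccl20, Cx3cl1, Csf1 and Csf3. They were chosen by gene name, with the differences between these same arrays known, and all 15 probes carrying those names were read. They are 10 of 24842 named genes on the array, and each had a probe well above background on all 3 arrays. Hepa1c1c7 cells, a mouse hepatoma line grown in culture, had been transfected with an empty vector (Empty), a vector for Cd74 or a vector for Tmem54, and the total RNA of each was hybridised to 1 array of 1 colour (Cy3). The time after transfection, the promoter of the vectors and whether the cells were a clone or a pool are not given in the sources used here. Each vector has 1 array, so no value below has a replicate, no difference was tested and no p-value is given.

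Chemokines are small secreted proteins that bind G protein-coupled receptors on leukocytes and direct their migration. Cxcl1, Cxcl2 and Cxcl5 carry a Glu-Leu-Arg motif and recruit neutrophils through Cxcr2, Ccl2 and Ccl7 recruit monocytes through Ccr2, and Ccl20 recruits Ccr6-bearing lymphocytes and dendritic cells. Cxcl16 and Cx3cl1 are made as membrane-anchored proteins that proteases such as Adam10 and Adam17 can shed. Csf1 drives the survival and growth of macrophages, and Csf3 (G-CSF) drives the production of neutrophils. Many of these genes are transcribed in epithelial and liver cells in response to tumour necrosis factor and interleukin 1 through NF-kB, a dimeric transcription factor, and several of their mRNAs are short-lived because of AU-rich elements.

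RefSeq promoter sequences (build GRCm38.p6) were at hand for 5 of the 10 genes, Cxcl1, Cxcl2, Ccl20, Cx3cl1 and Csf1. Those for Cxcl5, Cxcl16, Ccl2, Ccl7 and Csf3 were not used here. The 250 bases upstream of the start are shown for the 4 genes with a match to the NF-kB consensus, searched on both strands, because 3 of these genes, Cxcl1, Cxcl2 and Ccl20, read at least 2-fold lower with the Tmem54 vector than with the empty one. Capitals mark the matched bases, including overlapping matches on opposite strands. The windows are chr5:90890995-90891244 (plus strand) for Cxcl1, chr5:90903649-90903898 (plus strand) for Cxcl2, chr1:83116516-83116765 (plus strand) for Ccl20 and chr3:107760470-107760719 (minus strand) for Csf1.
Cxcl1: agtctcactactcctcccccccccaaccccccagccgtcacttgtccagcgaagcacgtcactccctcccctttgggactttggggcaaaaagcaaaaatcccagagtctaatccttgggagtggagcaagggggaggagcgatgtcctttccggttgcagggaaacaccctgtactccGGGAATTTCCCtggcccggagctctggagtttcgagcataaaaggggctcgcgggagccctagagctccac
Cxcl2: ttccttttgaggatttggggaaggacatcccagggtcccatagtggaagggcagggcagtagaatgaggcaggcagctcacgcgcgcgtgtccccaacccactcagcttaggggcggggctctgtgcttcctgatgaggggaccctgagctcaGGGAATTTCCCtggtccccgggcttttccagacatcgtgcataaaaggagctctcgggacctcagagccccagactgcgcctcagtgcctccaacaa
Ccl20: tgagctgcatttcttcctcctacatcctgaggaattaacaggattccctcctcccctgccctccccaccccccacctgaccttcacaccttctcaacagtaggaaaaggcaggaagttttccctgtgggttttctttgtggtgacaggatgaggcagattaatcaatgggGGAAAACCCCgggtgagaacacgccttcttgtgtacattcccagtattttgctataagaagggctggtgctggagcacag
Csf1: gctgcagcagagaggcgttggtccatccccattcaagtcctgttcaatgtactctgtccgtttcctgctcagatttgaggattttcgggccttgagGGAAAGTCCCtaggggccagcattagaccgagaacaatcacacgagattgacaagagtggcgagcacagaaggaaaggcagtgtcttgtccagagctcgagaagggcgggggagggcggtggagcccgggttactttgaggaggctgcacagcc

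The matches began 71 bases before the start in Cxcl1, 97 in Cxcl2, 80 in Ccl20 and 154 in Csf1. Cxcl1 and Cxcl2 shared a run of 14 bases, GGGAATTTCCCTGG, that holds the match, and these were the only 2 of 32851 upstream windows of this length in the table that held the run on either strand. The consensus itself was found in 1281 of the 32851 windows (3.90%), and no match was found in the window of Cx3cl1. The AP-1 motif TGANTCA, searched on both strands, was in 6.75% of the windows and in none of the 5. A match describes these letters only and is no evidence of binding. A further feature was read from the array probes themselves. The pentamer ATTTA, the core of AU-rich elements, occurred in 4 of the 15 probes, those of Cxcl2, Cxcl5, Ccl20 and Csf3, against 8.08% of the 56605 probes of the array.

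On the arrays, between 55.7% and 57.2% of the 59305 spots other than controls were well above background, and 0 were saturated. The transfected genes matched their labels: the Cd74 probe read 26.8 with Empty, 10860 with Cd74 and 22.4 with Tmem54, and the Tmem54 probe read 19750 on its own array but did not clear the background elsewhere. The 3 arrays lay on 1 slide and were read in 1 scan, so neither separated the vectors. Of 10 hepatocyte markers, 6 were well above background on every array, including the oncofetal gene Afp (25520, 24690 and 26710 for Empty, Cd74 and Tmem54) and Alb (5727, 2993 and 10260), while Hnf4a, Apoa1, Apob and Ttr were not well above background on any. The values are processed signals, a linear fluorescence in arbitrary units. Differences are log2, after each array was divided by the 75th percentile of its spots, and the value after ± is the error that the scanner software's noise model gives a difference. That error covers noise within the arrays, not variation between cultures.

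With the Tmem54 vector, 7 of the 10 genes were at least 2-fold lower than with the empty vector, and all 10 were below 0. These were all 3 neutrophil-attracting chemokines, both monocyte chemokines, Ccl20 and Csf3. The median over the 10 was -1.59, against -0.003 over all 15521 genes compared. Over all genes 0.812% were at least 2-fold lower and 0.522% at least 2-fold higher in that comparison. With the Cd74 vector 0 of the 10 passed 2-fold in either direction, where 1.40% of all 15630 genes compared were lower and 1.02% higher, and the median was 0.19 against 0.012. Because the genes were picked with these contrasts known, the counts describe the choice and are read no further. The Cd74 and Tmem54 differences share the 1 empty-vector array, and a high or low value there would move both. 

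**Figure D1:**
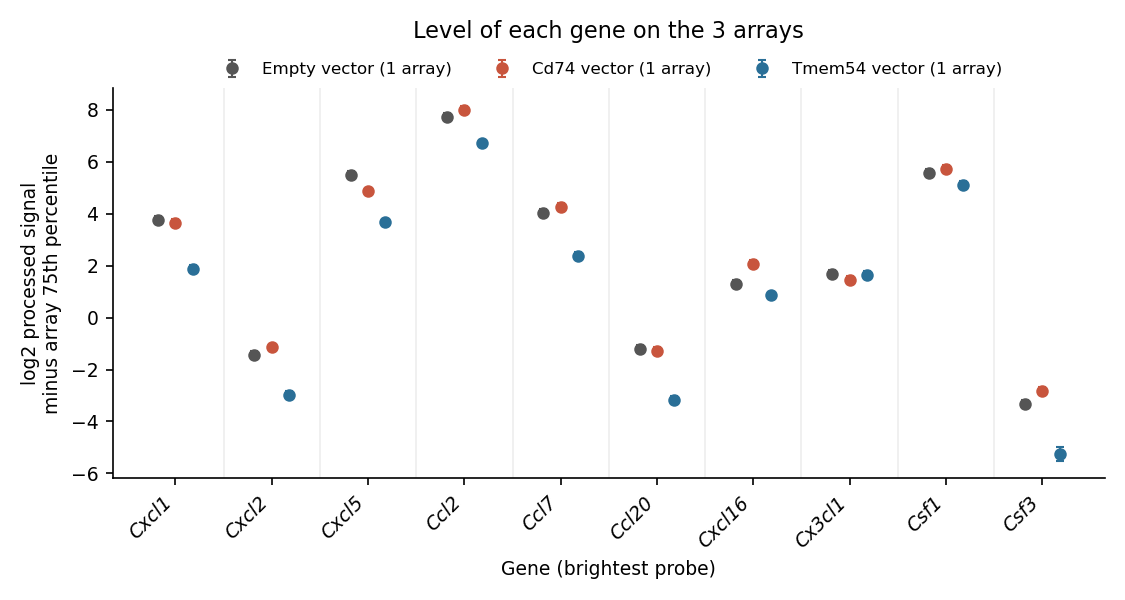
Log2 signal relative to each array's 75th percentile (y axis) for the brightest probe of each gene (x axis), with 1 point per array and bars for the noise model's error of that value. Within 9 of the 10 genes the Tmem54 point is the lowest, and for Cx3cl1 the Cd74 point is. Heights of different genes come from different probes and are not comparable.

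The neutrophil chemokines were lowest on the Tmem54 array. Cxcl1 (probe on chromosome 5, 91322080 to 91322139, build mm9) had a signal of 9268 with Empty, 8283 with Cd74 and 2564 with Tmem54. The Tmem54 difference of -1.87 ± 0.20 is a 3.65-fold lower signal, while Cd74 and Empty differed by -0.097 ± 0.20, less than the error. Cxcl5 (chromosome 5, 91190490 to 91190549) read 30950, 19070 and 8794 in the same order. Its arrays stood in 3 steps: Cd74 lay at -0.63 ± 0.20 from Empty, and Tmem54 at -1.83 ± 0.20. Cxcl2 (chromosome 5, 91334534 to 91334593) read 251.7, 297 and 87.6, with a Tmem54 difference of -1.53 ± 0.21 and a Cd74 difference of 0.30 ± 0.20. For Cxcl1 and Cxcl2 the Empty and Cd74 arrays stood close together and the Tmem54 array stood apart.

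The monocyte chemokines had the same order of arrays, with Cd74 highest and Tmem54 lowest. Ccl2 (chromosome 11, 81850650 to 81850709) had a signal of 146700 with Empty, 168700 with Cd74 and 72500 with Tmem54. Its Tmem54 difference of -1.03 ± 0.20 lay just past the 2-fold mark, and with normexp background correction it was -0.98. Ccl7 (chromosome 11, 81860656 to 81860715) read 11250, 12620 and 3616, a Tmem54 difference of -1.65 ± 0.20. The Cd74 differences of Ccl2 (0.27) and Ccl7 (0.23) were less than 2 times their error. Ccl20 (chromosome 1, 83115500 to 83115559) read 297.3, 268.3 and 77.3. Its Tmem54 difference of -1.955 ± 0.21 lay within the error of those of Cxcl1 and Csf3, and with normexp correction it was -1.35. The Cd74 difference of Ccl20 was -0.083 ± 0.20.

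The membrane-anchored chemokines did not pass 2-fold against Empty with either vector. Cxcl16 was read by 2 probes. The brighter one (chromosome 11, 70267780 to 70267839) read 1692 with Empty, 2771 with Cd74 and 1252 with Tmem54, giving differences of 0.78 ± 0.20 for Cd74 and -0.45 ± 0.20 for Tmem54. Its other probe (70269481 to 70269540) gave 0.51 and -0.49, so both probes put Cd74 above Empty and Tmem54 below. Cx3cl1 (chromosome 8, 97306185 to 97306244) read 2199, 1801 and 2160, and its 3 arrays differed by no more than 0.22 on the log2 scale, close to the error of 0.20. A second Cx3cl1 probe, to an Ensembl transcript, was well above background on the Tmem54 array only, with a signal of 18.8. That is at least 1.42-fold higher than Empty, a bound set by the lowest signal called well above background on that array, 13.1. The 2 probes thus do not give the same picture, and the second lies near the detection limit.

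The colony-stimulating factors differed from each other. Csf1 was read by 4 probes, of which 3 were well above background on every array. The brightest (chromosome 3, 107544333 to 107544392) read 32660 with Empty, 34750 with Cd74 and 24080 with Tmem54. Its Tmem54 difference was -0.45 ± 0.20, and the other 2 probes, both to another RefSeq transcript of the gene, gave -0.57 and -0.51. The Cd74 differences of the 3 Csf1 probes were 0.155, 0.22 and 0.22. All 3 probes therefore placed Csf1 in the order Cd74, Empty, Tmem54, with each step under 2-fold. The 2 probes to the other transcript overlap and are not separate readings. The Cd74 differences lay near their error of 0.20, so the order of Cd74 and Empty is not resolved. Csf3 (chromosome 11, 98564614 to 98564673) was dim, with signals of 68.1 with Empty, 92.9 with Cd74 and 18.25 with Tmem54. Its differences were 0.51 ± 0.22 for Cd74 and -1.91 ± 0.31 for Tmem54. The Tmem54 signal of Csf3 lay near 13.9, the lowest signal called well above background on that array, and the normexp setting, which adds a constant to each signal, gave -0.70, short of 2-fold.

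**Figure D2:**
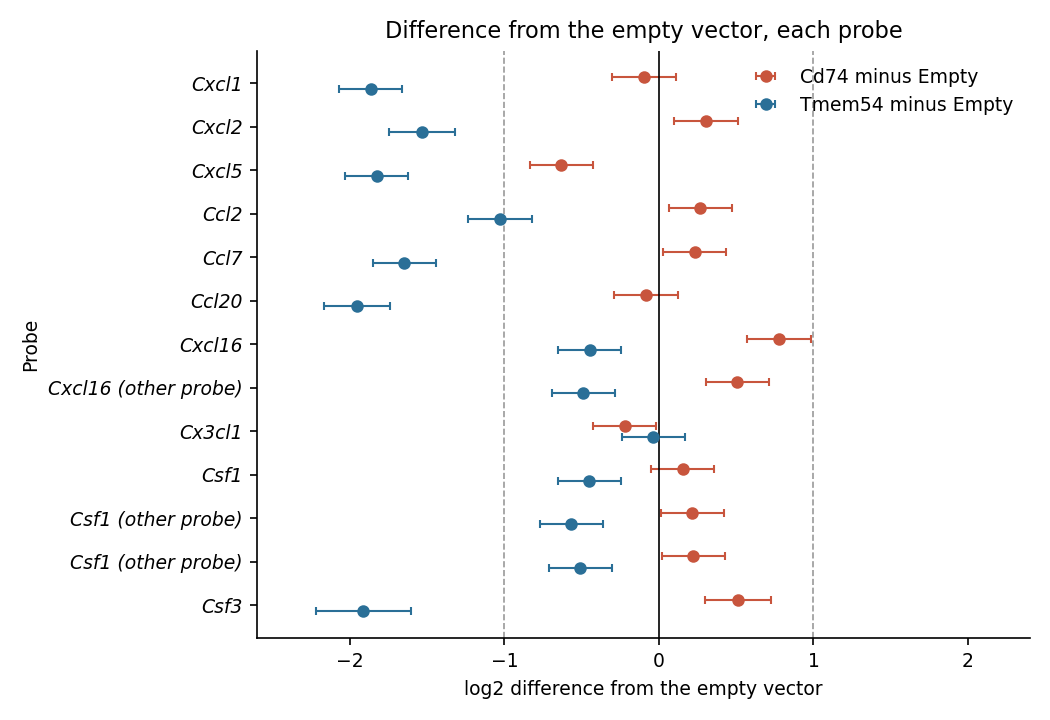
Log2 difference from the empty vector (x axis) for the 13 probes of the 10 genes that were well above background on every array (y axis), for the Cd74 and Tmem54 vectors, with bars for the noise model's error and dashed lines at 2-fold. The Tmem54 points of 7 genes lie left of -1, and no Cd74 point lies outside the dashed lines.

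In the comparison without the empty vector, signals with Cd74 were at least 2-fold higher than with Tmem54 for 8 of the 10 genes, where 1.63% of the 15423 genes compared were higher and 1.69% lower. The eighth gene, beside the 7 that were low with Tmem54, was Cxcl16, with a difference of 1.225 ± 0.20 by its brighter probe and 0.998 by its other one, just under 2-fold. Csf3 differed by 2.425 ± 0.31, a 5.37-fold higher signal, but by 1.03 with normexp correction, which made it the smallest of the 8. Ccl7 differed by 1.88, Ccl20 by 1.87, Cxcl2 by 1.84, Cxcl1 by 1.77, Ccl2 by 1.30 and Cxcl5 by 1.195. With normexp correction Ccl20 and Cxcl2 differed by 1.31 and 1.295. Csf1 differed by 0.61, and Cx3cl1 by -0.18, the 1 gene of the 10 with a lower signal on the Cd74 array than on the Tmem54 array. The median over the 10 was 1.53, against 0.026 over all genes compared.

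Read across the 3 arrays, 6 genes were highest with Cd74 and 4 with Empty. The Cd74 and Empty levels of 7 genes lay within 2 times the error of each other, the exceptions being Cxcl5, Cxcl16 and Csf3. The Tmem54 and Empty levels of 9 genes lay further apart than 2 times the error, and those of Cx3cl1 did not. The shares of all genes on the array with these orders, or past 2 times the error, are not given here. The genes were picked with these contrasts known, so these counts too describe the choice and are read no further.

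**Figure D3:**
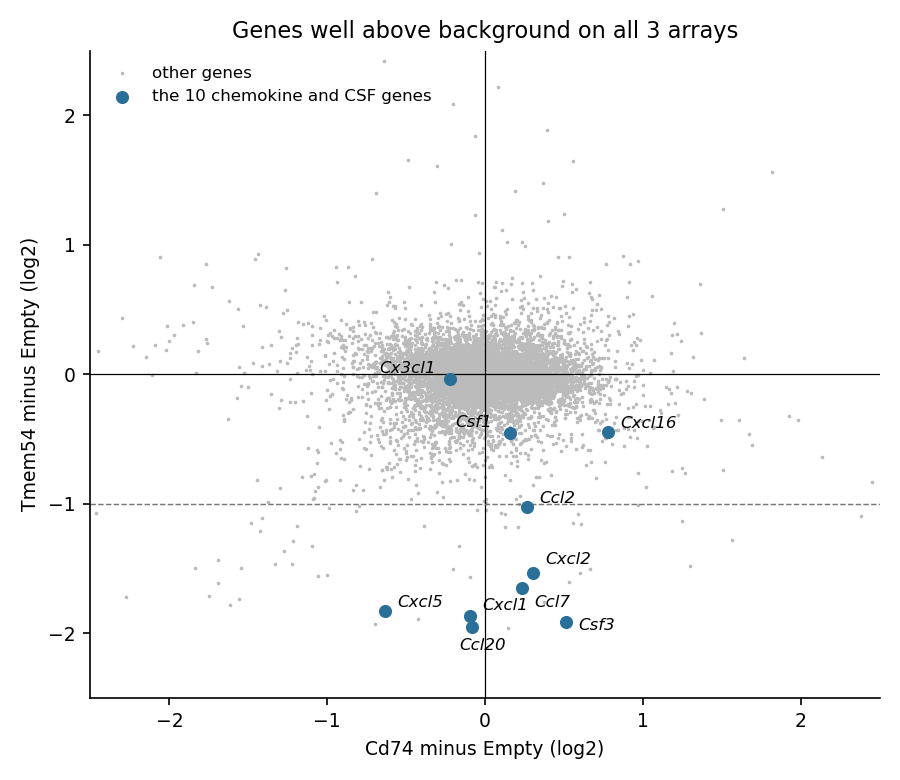
Log2 difference from the empty vector for Tmem54 (y axis) against Cd74 (x axis) for genes well above background on all 3 arrays, with the 10 genes in blue and a dashed line at 2-fold lower with Tmem54. Of the other genes, 5 lie outside the axes. Both axes subtract the same Empty array, so no correlation is read from them. 7 of the 10 genes lie below the dashed line while their Cd74 differences run from -0.63 to 0.51.

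The 5 bright genes outside the 10 whose pair of differences lay nearest to the members' medians were Saa3, Nudt7, Sprr2h, Tnip3 and Bcl2l15, at distances from 0.40 to 0.51 log2 units, out of 10072 genes ranked over the 3 arrays. Saa3, a serum amyloid protein of the acute phase, read 429.5 with Empty, 357.1 with Cd74 and 152.3 with Tmem54. Tnip3, which binds the NF-kB inhibitor A20, read 732.3, 1108 and 260.7, and its other probe read 291.2, 395.9 and 93.7. Sprr2h, of the small proline-rich proteins, read 234.3, 340.2 and 81.7. Nudt7, a peroxisomal CoA diphosphatase, and Bcl2l15, of the BCL2 family, differed by -1.18 and -1.08 with Tmem54, and their other probes were not well above background.

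Cxcl5, Cxcl1 and Cxcl2 lie in 1 chemokine cluster on chromosome 5, and Ccl2 and Ccl7 are neighbours on chromosome 11, by the gene order of the RefSeq table. The genes between and beside them were looked up after the values of the 10 were known. Cxcl3, a neutrophil chemokine that lies between Cxcl5 and Cxcl1, read 14480 with Empty, 11380 with Cd74 and 10700 with Tmem54, a Tmem54 difference of -0.45. Ppbp, a platelet chemokine beside Cxcl5, read 979.7, 410.7 and 1202, so that it was low with Cd74 (-1.19) and not with Tmem54 (0.28). Pf4, the platelet factor next to Ppbp, was dim, at 14.9 with Empty and 34.1 with Tmem54 (1.18), and was below detection with Cd74. Cxcl15 read 24.1 with Empty and 42.6 with Tmem54 (0.805). Outside the chemokines, Rassf6 on one side and Mthfd2l on the other differed by 0.087 and -0.01 with Tmem54. Between the outer members of the chromosome 5 cluster, low Tmem54 signals past 2-fold were seen for Cxcl5, Cxcl1 and Cxcl2 and not for the 4 genes between them. The low genes were picked with this contrast known, so the split describes the choice and is read no further. For Pf4 and Cxcl15 a 2-fold fall could not have been called. Their Empty signals lay too near 13.9, the lowest signal well above background with Tmem54. On chromosome 11, Ccl8, a monocyte chemokine, differed by -0.48 with Tmem54, and Ccl11, Ccl12 and Ccl1 were not well above background on any array.

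**Figure D4:**
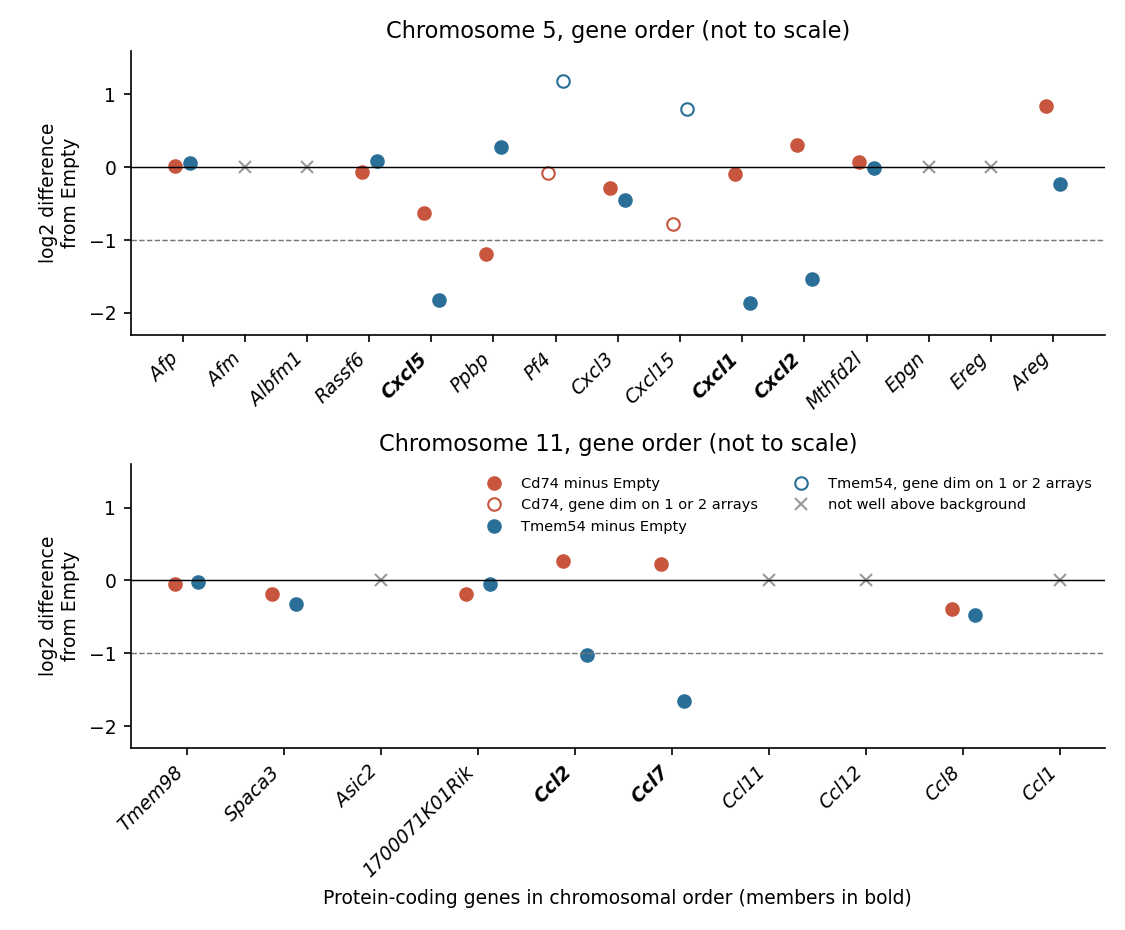
Log2 difference from the empty vector (y axis) for protein-coding genes in chromosomal order (x axis) around the chromosome 5 and chromosome 11 chemokine clusters, with Cd74 in red and Tmem54 in blue, open circles for genes dim on 1 or 2 arrays and crosses for genes not well above background. In the chromosome 5 panel the blue points of Cxcl5, Cxcl1 and Cxcl2 lie below the 2-fold line, and those of Ppbp, Pf4, Cxcl3 and Cxcl15 do not.

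Of 30 other chemokine genes, 14 were detected (well above background) on 1 or more arrays. With Tmem54, 0 of the 14 were at least 2-fold lower and 1, Pf4, was higher, with a median of -0.002. For this list and those that follow, the shares over all genes were 0.812% lower and 0.522% higher with Tmem54. With Cd74 they were 1.40% and 1.02%. The lowest of the 10 detected on every array was Ccl5, a chemokine for T cells and monocytes, which read 176 with Empty, 79.4 with Cd74 and 91.5 with Tmem54, differences of -1.08 and -0.96. Ccl17 differed by 0.53 with Tmem54 and -0.62 with Cd74, and Ccl9 by -0.26 and -0.67. Of the interferon-induced chemokines, picked after their values were seen, Cxcl10 differed by -0.25 with Tmem54, and Cxcl11 read 131200, 130300 and 132100 on the 3 arrays. That level of Cxcl11 rests on 1 probe, and its other probe read only 3748, 3511 and 3479. With Cd74, 2 of the 14 other chemokines, Ccl5 and Ppbp, were at least 2-fold lower, and the median was -0.33. 

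Among 13 further haematopoietic growth factor genes, 10 were well above background, and 1 was at least 2-fold lower with Tmem54. It was Csf2 (GM-CSF), the growth factor of granulocytes and macrophages, which read 204.5 with Empty, 183.3 with Cd74 and 69.7 with Tmem54, differences of -0.093 and -1.565 in the order Cd74, Tmem54. Il6, the inducer of the hepatic acute phase, read 58.9, 70.4 and 34.4, and its Tmem54 difference of -0.79 did not reach 2-fold. Il7, a growth factor of lymphocytes, differed by 0.91 with Cd74 and -0.42 with Tmem54. Il34, the other ligand of the Csf1 receptor, went the other way, with -0.62 for Cd74 and 0.29 for Tmem54. The median of these growth factors was -0.1 with Tmem54 and -0.002 with Cd74. Set against Tmem54, the Cd74 array was at least 2-fold higher for 3 of the 10, Csf2 (1.47), Il7 (1.33) and Il6 (1.11).

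The receptors that answer the 10 ligands were mostly below detection in these cells. Of 7 receptor genes, those for Cxcr2, Ccr2, Ccr6, Cxcr6 and Cx3cr1 had no probe well above background on any array. Csf3r, the receptor of Csf3, read 21710 with Empty, 20040 with Cd74 and 20690 with Tmem54, and Csf1r, the receptor of Csf1, read 3626, 3001 and 3811. Neither differed between arrays by more than 0.27. Each of these levels rests on 1 probe: Csf3r has no other, and the other Csf1r probe read only 197.2, 197 and 215.8. Of all 27 receptor genes, 10 were detected on 1 or more arrays and 0 passed 2-fold against Empty with either vector. The atypical chemokine receptor Ccrl2 read 33.5, 52.05 and 19.3, with differences of 0.70 for Cd74 and -0.805 for Tmem54, and Ccr10 differed by -0.83 with Cd74 and 0.10 with Tmem54. Csf2ra, a receptor chain of Csf2, was dim and differed by 0.22 with Cd74 and 0.025 with Tmem54.

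Upstream of the chemokines, 20 of 24 genes for inducing cytokines, their receptors and adaptors were well above background, and 0 passed 2-fold against Empty with either vector. Their medians were -0.026 with Tmem54 and -0.003 with Cd74. Il1a, Il1b, Il17a and Cd40 were not well above background, and Tnf, picked after its values were seen, read 178.3, 173.7 and 158.1. Il1r1, the interleukin 1 receptor, differed by -0.61 with Cd74 and 0.13 with Tmem54. Il1rap, its co-receptor, differed by -0.52 and -0.32, the double-stranded RNA sensor Tlr3 by 0.22 and 0.29, and the adaptor Traf6 by 0.35 and -0.046. All 19 genes for NF-kB subunits, kinases and feedback inhibitors were well above background, and 16 of them were below 0 with Tmem54, with a median of -0.27. Over all 15521 genes compared, the median was -0.003. Of the 19, 2 were at least 2-fold lower, where 0.812% of all genes were, namely Tnip3 (-1.50) and the adaptor gene Traf1 (-1.16). The A20 gene Tnfaip3 differed by -0.68. The list was chosen with earlier results of these data known, so these counts are read no further. With Cd74 the median of the 19 was 0.061, with 7 below 0, and Tnip3, Ikbkg, Traf1 and Tnfaip3 differed by 0.66, 0.63, 0.61 and 0.39.

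Genes that act on the mRNAs or the proteins stayed under 2-fold against Empty with both vectors. Over all genes 0.812% were at least 2-fold lower and 0.522% higher with Tmem54, and 1.40% and 1.02% with Cd74. In lists this short, 0 is near those shares and is not read as a trait of these genes. All 9 genes for proteins that bind mRNA and act on its stability were well above background, with Tmem54 differences from -0.23 (Rc3h1) to 0.056 (Hnrnpd). Of them Zfp36 and Zfp36l1, which promote decay, differed by 0.30 and 0.29 with Cd74 and by -0.019 and -0.093 with Tmem54. All 6 genes for sheddases and their regulators were well above background, and 0 passed 2-fold against Empty. Adam17 differed by -0.069 with Tmem54 and -0.14 with Cd74, Bace1 by 0.069 and -0.28, and Rhbdf2 by -0.13 and 0.046. Timp3, an inhibitor of these proteases, was the widest, with 0.30 for Tmem54 and -0.80 for Cd74.

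**Figure D5:**
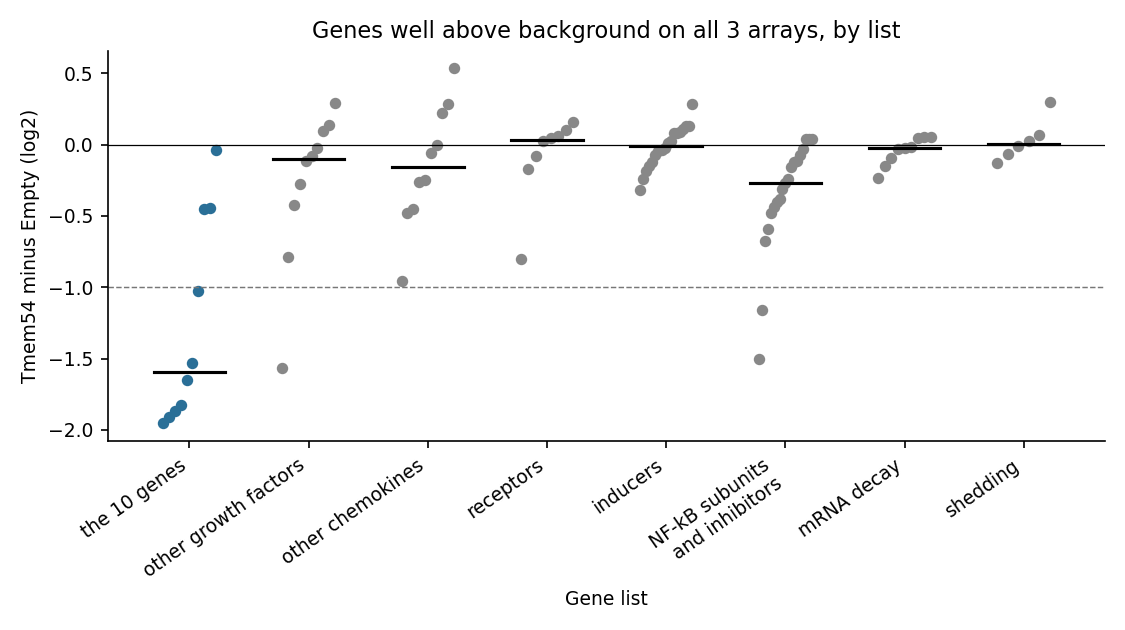
Log2 difference of Tmem54 from the empty vector (y axis) for genes well above background on all 3 arrays, by list (x axis), with the 10 genes in blue, a bar at each list's median and a dashed line at 2-fold lower. The medians are -1.59 for the 10 genes, -0.155 for 10 other chemokines, -0.1 for 10 other growth factors and -0.27 for 19 NF-kB subunits and inhibitors.

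Markers of other cells were read beside these results. The summed signal of the macrophage markers, 7 of 10 of them well above background, was 14960 with Empty, 13740 with Cd74 and 14590 with Tmem54. With Tmem54 their median was -0.11, with 5 of 7 below 0. Ptprc, Cd68, Lyz2, Csf1r, Itgam, Cd14 and Marco were well above background on every array, and Adgre1, Clec4f and C1qa on none. The pan-leukocyte gene Ptprc was bright on 1 of its 7 probes (3711, 3096 and 3461), and the other 6 were well above background on 1 array at most. The neutrophil markers, 6 of 7 detected, summed to 22730, 21040 and 21640, a sum carried by Csf3r. With Tmem54, 5 of these 6 were below 0, as were the 10 genes, with a median of -0.27. S100a9 differed by -0.54, S100a8 by -0.42, Elane by -0.12, Csf3r by -0.082 and Ly6g by 0.105. Mpo, below detection there, gave only a bound of -0.75. S100a8 was dim, at 19.3 with Empty and 14.5 with Tmem54, near the detection limit of 13.9, and its error was 0.40. The part that these marker differences have in the chemokine differences was not tested. Cxcr2 was not detected, and Ly6g differed by -1.10 with Cd74. Fibroblast and stellate cell markers, 7 of 8 detected, summed to 90790, 91910 and 82460, a sum carried by Dcn (67720, 75620 and 57020). Their median was 0.2 with Tmem54, with 2 of 7 below 0, and -0.25 with Cd74, with 6 of 7 below 0. The sums were, for endothelial markers, 3 of 6 detected, 178.9, 163.5 and 179.1, and for cholangiocyte markers, 4 of 5 detected, 39620, 33790 and 43430. Of the genes in the fibroblast, endothelial and cholangiocyte lists, Lrat, Cdh5, Kdr, Tek and Epcam were not detected. The rest were detected on every array, among them Col1a1, Acta2, Pecam1, Stab2, Lyve1, Krt7, Krt19 and Sox9. With Tmem54, 0 genes of these lists passed 2-fold against Empty. In bulk RNA, fewer cells making a transcript and less of it per cell cannot be told apart. The hepatocyte markers summed to 79100, 64230 and 88090, highest with Tmem54, where the 10 genes were low, and the part this has in the chemokine differences was not tested.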

How the data were processed

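Each of the 3 samples is 1 array of an Agilent mouse design, read in 1 colour. Per the file headers, the deposited intensity of each spot was written by Feature Extraction, which the submitters' processing notes give as version 12.0.3.1, in which spatial and multiplicative detrending are switched on. The deposited value table is a linear ratio, which equalled the processed signal divided by 580.3, 559.8 and 580.7 for Empty, Cd74 and Tmem54, near the 75th percentile of all spots. The table is thus on a linear scale with no centring of genes, and the medians of its columns were 0.0409, 0.0393 and 0.0390.

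Control spots and 119 to 135 outlier spots per array were left out. From log2 of the processed signal the 75th percentile of the array's spots other than controls was subtracted, which were signals of 686.8, 656.4 and 692.7. A gene took its brightest probe among those that cleared the background on 1 or more arrays. Where 1 array was dim, the difference is a bound against the lowest signal well above background there. Calls are at 2-fold. Probes were named through RefSeq accessions (33767), symbols (9866) or synonyms (310), and 12662 had no name and were left out. Coordinates of probes are on build mm9, those of promoters on GRCm38.p6. The noise model's error was typically 0.145 per array (median, log2), and replicate spots of other probes had a median SD of 0.037 to 0.040. Each probe of the 10 genes was printed once. Precision is limited by there being 1 array per vector.

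The 10 genes and the 13 other gene lists were chosen with earlier results of these data known. Genes named outside the 10 are up to 4 per pathway list with the widest differences and the 5 nearest patterns, except where the text says otherwise; 1 receptor gene that the rule names is not reported here. The calling step was tested on simulated data with the noise of replicate spots only and planted differences well past 2-fold. That checks the arithmetic and says nothing of noise between cultures or of calls near 2-fold. Alternatives were normexp with an offset of 50 (limma 3.58.1 in R 4.3.3), centring on the median of probes detected on all arrays, quantile normalization, the value table, measured probes only, the mean over probes, and outlier spots kept. Python 3.11.15 was used for the rest.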

Additional observations from a re-analysis of the deposited data

How the results depend on the processing

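No paired analysis was possible because each vector has 1 array, and for the same reason no array could be left out. Under the 7 alternatives, the number of the 10 genes at least 2-fold lower with Tmem54 stayed within 1.5 times its main value of 7, and it was 5 with normexp correction, where Ccl2 (-0.98) and Csf3 (-0.70) fell short. Normexp correction moved the median over the 10 genes to -1.01 for Tmem54 against Empty and to 1.22 for Cd74 against Tmem54. It moved Cxcl2 to -1.04, Ccl20 to -1.35 and Csf3 to -0.70 for Tmem54 against Empty, the dim genes, on which an added constant weighs most by construction. The mean over probes moved Cx3cl1 to 0.645 for Tmem54 against Empty, since it takes in the second, dim probe. Cxcl1, Cxcl5 and Ccl7 stayed at least 2-fold lower with Tmem54 in all 8 settings, and Cxcl2 and Ccl20 did too. Against Tmem54, 8 genes were at least 2-fold higher with Cd74 in each setting. The settings are not independent checks. Keeping outlier spots or only measured probes left the values of the 10 genes unchanged. The value table and the median centring shift each array by 1 constant. Agreement under these was thus largely fixed in advance. The mean over probes could change only genes with more than 1 usable probe. Over all genes, normexp correction left 34 lower and 32 higher calls for Tmem54 against Empty, against 126 and 81, and 61 and 58 for Cd74 against Empty, against 219 and 160. Keeping only probes well above background on both arrays left 61 and 31 for Tmem54 and 130 and 62 for Cd74, and higher genes were then 32.3% of the Cd74 calls, against 42.2%. Cd74 against Tmem54 gave 103 lower and 94 higher with normexp, against 261 and 251, and 170 and 140 with measured probes only.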
